A study of Homo sapiens with 20 samples.

Results

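The regions described here carried H3K4me3 in untreated WM164 melanoma cells and in colonies kept in a BRAF inhibitor, and had no peak of the mark in cells resistant to the same drug. There were 874 of them among 31428 regions in all. The members were chosen by the presence of peaks. Peaks of the 10 H3K4me3 lists on chromosomes 1 to 22 and X were merged where they overlapped or were at most 1000 bp apart, and a region was kept when both parental and both colony lists, and neither resistant list, had a peak in it. Presence in those 6 lists is therefore a description and gets no test.

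WM164 is a human melanoma cell line with a mutant BRAF kinase, and dabrafenib inhibits that kinase. The groups, with 2 libraries each, were parental cells given DMSO (the solvent of the drug) for 3 days, colony cells after 45 days in 50 nM dabrafenib, and resistant cells after more than 90 days in 50 nM dabrafenib. Both drug groups had the drug renewed every 3 days. Fixation is described for these groups and not for the others. A second pair of groups was WM164 cells overexpressing NRAS Q61K, an activated RAS protein, and WM164 cells overexpressing GFP as the control; the labels do not describe how the transgenes were delivered. All cells are from 1 line, and nothing in the labels ties the resistant cells to such colonies or shows that replicates were separate cultures. The p-values below therefore measure only the spread between these libraries, which may be technical.

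Trimethylation of lysine 4 of histone H3 is laid down by the SET1 and MLL families of methyltransferases and removed by the KDM5 demethylases. It is concentrated around the start sites of active or poised genes, and strongly expressed genes tend to carry wide, high peaks. In melanoma, the demethylase KDM5B is known for its high level in slow-cycling, drug-tolerant cells. Positions below are in GRCh37. No gene annotation of that build was used here, so regions are named by chromosome band and position, and no gene is assigned to any of them. The check of cell type by marker genes was not made for the same reason.

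The resistant lists were the shortest of the series, with 19401 and 19111 peaks over 35.1 and 34.1 Mb. Parental lists held 29258 and 30065 peaks, colony lists 21408 and 21573, NRAS Q61K lists 40648 and 37649, and GFP lists 41806 and 45376. The shortest peak of a list, a length tied to that of the sequenced fragments, measured 202 and 180 bp in parental, 282 and 284 bp in colony and 255 and 256 bp in resistant lists, against 151 to 153 bp in NRAS Q61K and 142 and 153 bp in GFP lists. No list gives read counts. A low-end background was worked out from the fold and p-value of single peaks, then converted to reads per kb using each list's shortest peak. It was 14.5 to 15.7 in colony and 19.1 to 19.3 in resistant libraries. Parental libraries had 24.8 and 19.7, NRAS Q61K libraries 25.3 and 22.5, and GFP libraries 22.9 and 17.7. The resistant libraries were thus above both colony libraries and GFP 2, and below all others. Library properties and drug exposure cannot be told apart in this design.

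Most of the 874 regions were short and weakly marked where they had peaks. They made up 6.58% of the 13291 regions with a peak in both parental and both colony lists; 12137 of those were also marked in both resistant lists and 280 in 1 of the 2. The median region length was 1608 bp (quartiles 1107 and 2296.5 bp), against 4117 bp for the regions kept in all 6 lists. The authors' −log10 q gives the significance of a peak against its local background, not the fold over it. Strength is given as the highest −log10 q in the region, averaged over the parental and colony lists. Its median was 9.52 in the 874 regions, 12.8 in those kept in 1 resistant list and 49.4 in those kept in both. When the 13291 regions were divided into quartiles of strength, 831 of the 874 (95.1%) fell in the weakest quartile and made up 25% of it, 29 fell in the next, 9 in the one above and 5 in the strongest.

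**Figure D1:**
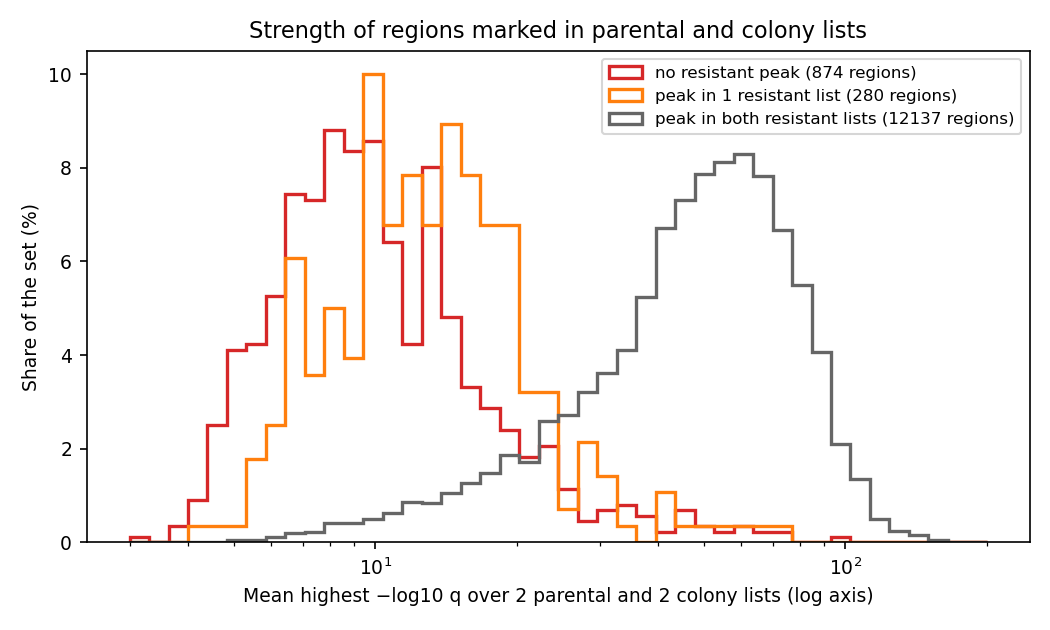
Histogram of strength, the mean of the highest −log10 q over 2 parental and 2 colony lists, on a log axis. Lines give the share in percent of the 874 regions without a resistant peak, the 280 with a peak in 1 resistant list and the 12137 with a peak in both; the first set centres near 9.52 and the last near 49.4.

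A minority of the regions was strong in every parental and colony list. At 142 regions (16.2%) the peak reached a −log10 q of 10 in both parental and both colony lists, whereas at 231 it stayed below 10 in all 4. Where 1 resistant list did keep a peak, that peak was itself weak, with a median −log10 q of 4.98 over the 280 regions. The count of regions depends on how weak peaks are treated. Keeping only peaks with a −log10 q of 10 or more in every list gave 410 regions by the same rule, and shortening every list to the 19111 strongest peaks gave 473.

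The edge of the rule shows how near some regions came to it. The members closest to a resistant peak were at 22q13.31 (chromosome 22, 48023750 to 48024918), 1210 bp away, 13q14.11 (chromosome 13, 45145353 to 45147426), 1444 bp away, and 11p11.12 (chromosome 11, 51578587 to 51581094), 1455 bp away. Just outside, a resistant peak lay 295 bp from the parental and colony peaks at 15q26.3 (chromosome 15, 98544169 to 98548154) and 22 bp from them at 5q35.3 (chromosome 5, 177783748 to 177785668). The faintest resistant peaks that kept a region out had −log10 q of 1.44 at 18q23, 1.6 at 9q21.11 and 1.76 at 1q42.2. The faintest parental or colony peaks that let one in were as weak, at 1.66 for Xq11.1, 1.82 for 19p13.2 and 1.83 for 1p32.3. Most members lay further from resistant peaks, and by the rule none had one within the merging distance. The median distance to the nearest one was 41662.5 bp, 73 regions (8.35%) had one within 5 kb, and 232 (26.5%) had none within 100 kb. The 2178 regions that parental cells carried and both drug groups lacked have no resistant peak either. Their median distance was 49038 bp, with 5.79% within 5 kb of a resistant peak and 28.1% without one within 100 kb. Such distances are therefore not particular to the members.

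The strongest member was at 11q13.3 (chromosome 11, 70085144 to 70091391), with a strength of 102.19. Peaks covered 5212 and 4559 bp of it in the parental libraries, 4067 and 4071 bp in colony, none in resistant, 4801 and 4649 bp in NRAS Q61K and 4340 and 4589 bp in GFP libraries. Every library outside the resistant pair thus held at least 4067 bp. The next, at 7q22.2 (chromosome 7, 104434253 to 104448253; strength 73.87), was the longest after the centromeric regions described further on. It was covered over 9030 and 7873 bp in parental, 9860 and 9716 bp in colony, 10089 and 8810 bp in NRAS Q61K and 9448 and 9410 bp in GFP libraries. A shorter member lay beside it (chromosome 7, 104420428 to 104427256), with 4621 and 4794 bp in parental, 1707 and 461 bp in colony, 3348 and 3028 bp in NRAS Q61K and 5134 and 4603 bp in GFP libraries. Of the neighbouring pair, only the shorter one was thus narrower in both colony libraries than in the parental ones.

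The other regions among the 10 strongest split by what the colonies did. At 2q33.1 (chromosome 2, 202278471 to 202286179) colony libraries covered 6919 and 7709 bp, against 5425 and 5663 bp in parental libraries. At 1p31.2 (chromosome 1, 69346938 to 69350130) they covered 3111 and 2609 bp, against 1490 and 1452 bp, a 1.94-fold difference of the means. Both regions were widest in the colony libraries among all 10. At 3q25.32 (chromosome 3, 157096229 to 157100082) the colony libraries were also the widest, with 3648 and 3854 bp, against 3496 and 3349 bp in parental libraries. At 20q13.31 (chromosome 20, 56170802 to 56177828) the colony libraries had 3261 and 3860 bp, against 5128 and 4840 bp in parental libraries. At 15q25.1 (chromosome 15, 80601127 to 80604167) they had 1474 and 1588 bp, against 2157 and 2228 bp, and at 8q11.21 (chromosome 8, 51555416 to 51562333) 4459 and 5085 bp, against 6178 and 6038 bp. Those were narrower in both colony libraries. At 9q34.3 (chromosome 9, 141061588 to 141069095) the pairs overlapped, with 6125 and 6028 bp in colony and 6086 and 5608 bp in parental libraries. They also overlapped at 3p26.1 (chromosome 3, 6531865 to 6534875), with 1994 and 2053 bp in colony and 2415 and 1708 bp in parental libraries. The regions at 8q11.21 and 3p26.1 were the most isolated of the 10, with the nearest resistant peak 1247235 and 1297907 bp away.

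**Figure D2:**
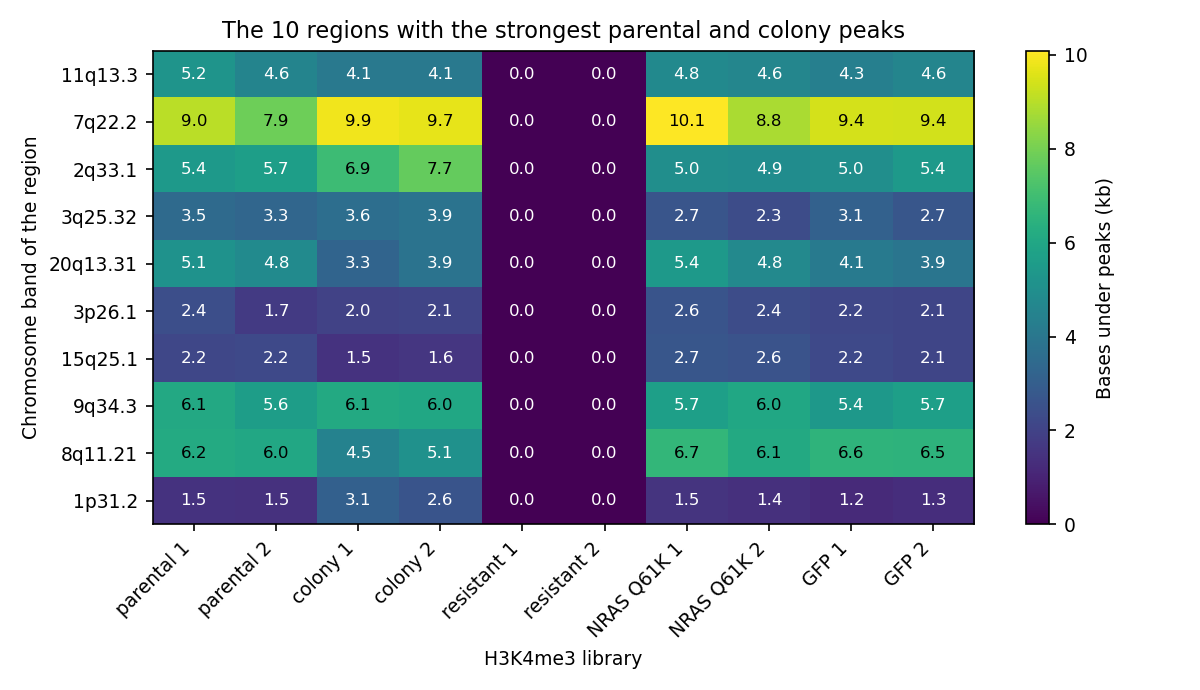
Heat map of kilobases under peaks in the 10 strongest regions (rows, by band) in each of the 10 libraries (columns). The resistant columns are 0.0 throughout by the rule, and the other 8 libraries hold a peak in every row, from 1.2 kb at 1p31.2 to 10.1 kb at 7q22.2.

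Across all 874 regions, the median width was a little lower in colony than in parental libraries. The total under peaks was 1030 and 849 kb in parental libraries 1 and 2 and 796 and 847 kb in colony libraries 1 and 2. Colony 2 and parental 2 were thus nearly equal in total. The median region was covered over 936.5 and 737.5 bp in the parental libraries and over 642 and 694.5 bp in the colony libraries, so both colony medians lay below the lower parental one, by less than the gap between the parental libraries. Both colony libraries were narrower than both parental ones at 345 regions (39.5%), where the share over the 13291 regions was 24.5%. Both were wider at 174 regions (19.9%), where that share was 28.4%, and the ranges overlapped at 355. The median log2 ratio of colony over parental mean covered length was −0.24 in the 874 regions and 0.02 over the 13291. The 13291 were wider in the parental libraries than the 874, so neither these shares nor these ratios compare regions of like width. The rule used these lists, so the figures are given without a test.

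**Figure D3:**
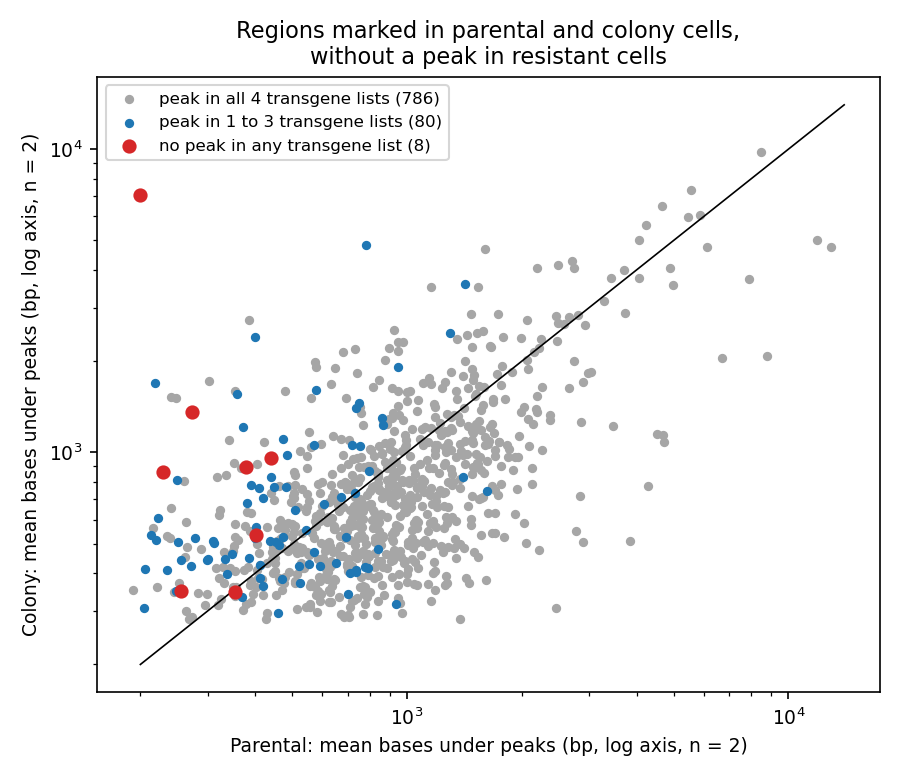
Mean bases under peaks in colony (vertical) against parental cells (horizontal) for each of the 874 regions, both on log axes and each a mean of 2 libraries; the line marks equal values. Of the 8 regions without a transgene peak, all but 1 (7p12.1, 346.5 against 353.5 bp) lie above the line, and the one at the top left is 15q13.3.

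A few regions were far wider in colony than in parental libraries. At 15q13.3 (chromosome 15, 31386359 to 31394526) colony libraries covered 7350 and 6739 bp, against 219 and 180 bp in parental libraries, and no resistant, NRAS Q61K or GFP library had a peak. Its −log10 q was 69.2 and 65.4 in colony and 7.0 and 5.6 in parental libraries. It was the largest ratio of colony to parental width, 35.3-fold. Next came 17q24.2 (chromosome 17, 65846347 to 65848155), with 1616 and 1763 bp in colony and 225 and 212 bp in parental libraries. At 19q12 (chromosome 19, 29373728 to 29378934) colony libraries held 4836 and 4838 bp, against 1033 and 531 bp. In both of these regions NRAS Q61K 1 was the only transgene library with a peak, over 342 and 577 bp. At 2q14.1 (chromosome 2, 118378237 to 118381424) colony libraries had 2295 and 3165 bp, against 307 and 463 bp, and all 4 transgene libraries had 518 to 1079 bp. In all, 62 regions (7.09%) were at least 2-fold wider in colonies by this measure, and over the 13291 regions 1.05% were. The 13291 were wider in the parental libraries, with medians of 2884 and 2641 bp, against 936.5 and 737.5 bp in the 874. The 2-fold shares here and below therefore do not compare regions of like width.

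The opposite, a narrower region in colonies, was seen at 132 regions (15.1%) by the same 2-fold measure, and at 2.91% of the 13291. At 2q31.1 (chromosome 2, 175457474 to 175463058) colony libraries kept 302 and 716 bp, against 3899 and 3765 bp in parental libraries. The transgene libraries were all wider than both parental ones there, with 4756 and 5105 bp in NRAS Q61K and 4920 and 4526 bp in GFP libraries. At 5q11.2 (chromosome 5, 56593143 to 56598789) colony libraries kept 707 and 847 bp, against 4543 and 4028 bp. At 8q24.21 (chromosome 8, 130690095 to 130694445) they kept 685 and 331 bp, against 2600 and 3192 bp. Both regions were covered over at least 3049 bp in each transgene library. At 8p12 (chromosome 8, 29601211 to 29612888) colony libraries had 3289 and 4197 bp, against 8234 and 7544 bp.

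The transgene lists, which the rule did not use, held most of the 874 regions. Peaks were found at 854 and 834 of them in the NRAS Q61K libraries and at 825 in each GFP library. All 4 transgene lists marked 786 regions (89.9%), a smaller share than the 98.9% of the 13291 regions marked in parental and colony cells. For comparison, all 4 marked 67.7% of the 2178 regions that parental cells carried and both drug groups lacked. They marked 86.3% of the 291 that only the colonies lacked and 95.7% of the 280 kept in 1 resistant list. These sets differ in strength. The median −log10 q in the parental lists was 10.8 in the 874, 53.3 in the 13291, 6.25 in the 2178, 10.8 in the 291 and 15.5 in the 280. The transgene lists were also the longest. With every list cut to its 19111 strongest peaks, both GFP libraries marked 348 of 473 members and both NRAS Q61K libraries 377. Of the 88 regions among the 874 that not all 4 lists marked, 45 had a peak in 3 transgene lists, 24 in 2, 11 in 1 and 8 in none. Regions narrower in both colony libraries were marked in all 4 transgene lists in 336 of 345 cases (97.4%), those wider in both in 132 of 174 (75.9%). The same split was not made over the 13291 regions, so this difference cannot be called particular to the 874.

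The 8 regions without any transgene peak were marked in parental cells, but mostly narrowly. After 15q13.3, the strongest were at 19p13.2 (chromosome 19, 12594657 to 12596144), 2p13.3 (chromosome 2, 69257308 to 69258336), 1p32.3 (chromosome 1, 52200676 to 52201658) and again 19p13.2 (chromosome 19, 12145101 to 12146926). The first of these had 1483 and 1233 bp in colony libraries, against 365 and 180 bp in parental libraries. At 2p13.3 the colony libraries had 740 and 983 bp, against 235 and 223 bp. At 1p32.3 they had 820 and 969 bp, against 248 and 510 bp, and in the last region 1071 and 849 bp, against 419 and 460 bp. All 5 were thus wider in both colony libraries than in both parental ones, and none had a peak in a resistant library. The number without a transgene peak, 8 of 874, changed when single libraries were left out. Applied to the libraries left, the rule gave 16 of 958 without parental 2 and 15 of 1281 without colony 1. It gave 14 of 874 without NRAS Q61K 1.

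The NRAS Q61K and GFP libraries took no part in choosing the regions, and their contrast asks whether the oncoprotein goes with a different width of the mark there. Both NRAS Q61K libraries covered more bases than both GFP libraries at 244 of the 874 regions (27.9%) and fewer at 162 (18.5%). Over the 23153 regions that had peaks in 2 or more libraries, these shares were 21.9% and 22.4%. All 874 regions have such peaks by the rule.

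Covered length was also compared with limma on log2(bases under peaks + 200), adjusted by Benjamini-Hochberg over the 23153 regions. With only the 4 transgene libraries in the fit, no region was called, among the 874 or elsewhere; the lowest adjusted p of the 874 was 0.0519. An unadjusted p below 0.05 was found at 140 of the 874 regions (16%), where it was found at 18.4% of all regions tested. With all 10 libraries sharing 1 estimate of spread, 38 of the 874 regions (4.35%) were called wider in NRAS Q61K cells at an adjusted p below 0.05 and 10 (1.14%) narrower, where 5.06% and 2.18% of all regions tested were. The shares in the 874 regions were thus near or below the background. The spread in that fit comes in part from the lists behind the rule, and the resistant pair, empty at every one of the 874 regions, adds none, so these calls are not independent of how the regions were chosen. Without the resistant pair 23 of the 874 were wider and 6 narrower (993 and 404 of all regions). Single libraries mattered as well: 11 were wider without NRAS Q61K 1 (788 of all regions) and 19 without NRAS Q61K 2 (899), and 4 were narrower without GFP 2 (366) and likewise without NRAS Q61K 2 (428). The median log2 change was 0.11 in the 874 regions and 0.05 over all regions tested.

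The adjusted p-values of the single regions that follow come from the limma fit to all 10 libraries. In the fit to the 4 transgene libraries alone every region named as called had an adjusted p between 0.0526 and 0.155, so all of these calls were lost there. Another fit, without the resistant pair, lost 3 of them: the second region of 5p15.31 (limma adjusted p = 0.0775), 8p11.21 (0.0739) and 2q13 (0.0979).

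Among the regions called wider in NRAS Q61K cells, the largest log2 change was at 19q13.2 (chromosome 19, 43028685 to 43033508). It was covered over 4519 and 3381 bp in NRAS Q61K libraries, against 160 bp and none in GFP libraries (log2 change 3.98, SE 0.29, limma adjusted p = 0.000689). Parental libraries had 1747 and 1495 bp there and colony libraries 600 and 887 bp, so it was widest with the oncoprotein. At 20p11.23 (chromosome 20, 20065474 to 20069864) NRAS Q61K libraries had 1726 and 1947 bp and GFP libraries none (limma adjusted p = 0.000201), and at 21q22.11 (chromosome 21, 35303676 to 35305883) they had 1649 and 1603 bp, against none (limma adjusted p = 0.00158). Both of these were also widest in colonies, with 3256 and 3921 bp and with 1670 and 2155 bp. At 5p15.31 the region from 8762542 to 8766811 on chromosome 5 had 3120 and 2611 bp in NRAS Q61K libraries, against 273 and 425 bp in GFP libraries (log2 change 2.54, SE 0.26, limma adjusted p = 0.00258). A second 5p15.31 region (6447280 to 6448789) had 1093 and 890 bp, against none and 211 bp (log2 change 2.1, SE 0.49, limma adjusted p = 0.0422). Counted by presence alone, 8 of the 874 regions had a peak in both NRAS Q61K and neither GFP library, and 3.01% of all 31428 regions did. Only 13291 of the 31428 have a peak in both parental and both colony lists, as every member does by the rule. The member count and that share are therefore not of like regions.

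Of the 10 strongest regions, only 20q13.31 was called in the fit to 10 libraries, with 5417 and 4750 bp in NRAS Q61K libraries, against 4143 and 3923 bp in GFP libraries (log2 change 0.36, SE 0.09, limma adjusted p = 0.0434). The wide region at 1p36.31 (chromosome 1, 6084513 to 6091260) had 5849 and 4708 bp in NRAS Q61K libraries, against 3704 and 3605 bp in GFP libraries (log2 change 0.55, SE 0.08, limma adjusted p = 0.00868). Its colony libraries had 6475 and 6467 bp and its parental libraries 4928 and 4387 bp. At 11q13.3, the strongest region, the log2 change was 0.13 (SE 0.07, limma adjusted p = 0.431).

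The lowest log2 change among the called regions was at Xq11.1 (chromosome X, 61685087 to 61692871), in a centromeric band. Repeated sequences share reads in such bands, so its position is uncertain. Its peaks were low, with a fold over local background of 1.36 to 2.63 in the libraries that had one. NRAS Q61K libraries had 213 and 167 bp there, against 1916 and 2729 bp in GFP libraries (log2 change −2.63, SE 0.21, limma adjusted p = 0.00135). It was also the region with the smallest ratio of colony to parental width, with 314 and 299 bp in colony and 2389 and 2523 bp in parental libraries. At 16p13.2 (chromosome 16, 8158514 to 8163286) NRAS Q61K libraries had 935 and 1375 bp, against 3749 and 3550 bp in GFP libraries (log2 change −1.48, SE 0.17, limma adjusted p = 0.00394). Colonies had 4188 and 3934 bp there and parental libraries 2980 and 2495 bp, so the region was narrowest, apart from the resistant libraries, where the oncoprotein was expressed. Smaller regions at 8p11.21 (chromosome 8, 43094655 to 43096121) and 1p36.31 (chromosome 1, 6601593 to 6602271) had no peak in either NRAS Q61K library. GFP libraries covered 351 and 738 bp at 8p11.21 (limma adjusted p = 0.0351) and 282 and 286 bp at 1p36.31 (limma adjusted p = 0.0144). At 2q13 (chromosome 2, 112221572 to 112222495) NRAS Q61K libraries had 191 bp and none, against 530 and 573 bp in GFP libraries (limma adjusted p = 0.0463). By presence, 3 of the 874 regions had a peak in both GFP and neither NRAS Q61K library, and 1.85% of all regions did. This count and share too are not of like regions.

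**Figure D4:**
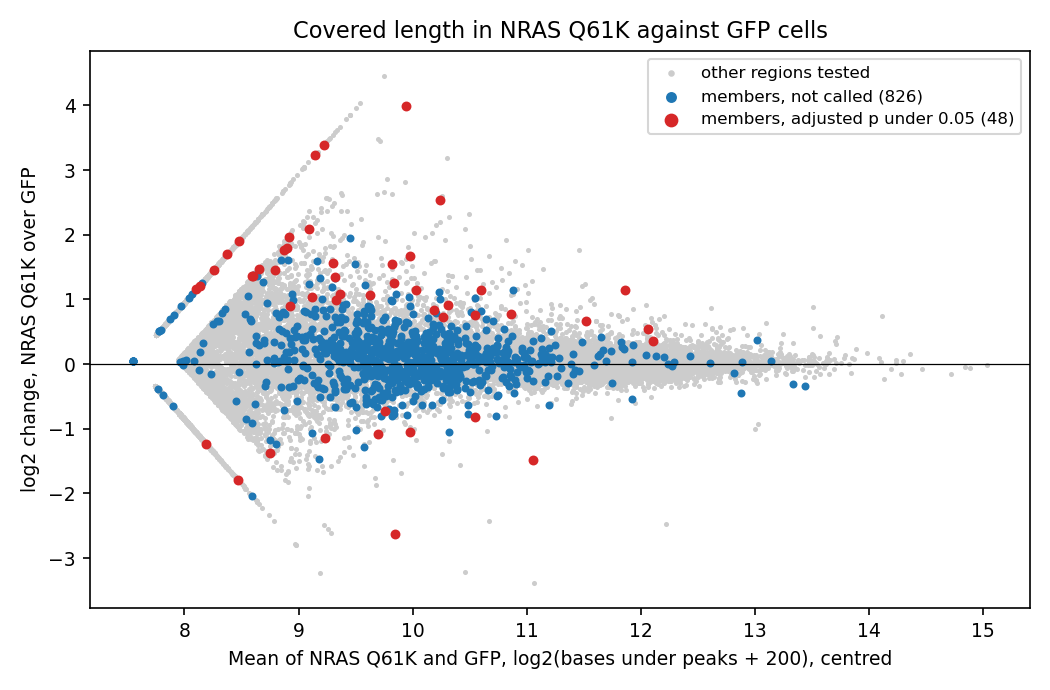
Log2 change in covered length, NRAS Q61K over GFP (vertical, 2 libraries each), against the mean of both groups (horizontal), for the 23153 regions tested. In the fit to all 10 libraries 48 of the 874 regions had an adjusted p below 0.05 (38 above 0, 10 below) and 826 did not, and in a fit to the 4 transgene libraries alone none did; straight edges hold regions empty in some libraries.

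The 874 regions were unevenly spread over the chromosomes. Among regions marked in parental and colony lists, the share without a resistant peak was highest on chromosome 7 (85 of 745, 11.4%), chromosome 2 (102 of 940, 10.9%) and chromosome 8 (51 of 493, 10.3%). It was lowest on chromosome 16 (14 of 552, 2.54%) and chromosome X (15 of 441, 3.4%). Strength differs between chromosomes, so the share was also taken among regions with a strength from 5 to 15, where it was 45.5% overall. It was then 64.1% on chromosome 2, 62.3% on chromosome 7 and 62.1% on chromosome 8, against 26.8% on chromosome 16 and 15.9% on chromosome X. By arm, 7p had the highest share among arms (39 of 274, 14.2%), followed by 2p (12.1%) and 8q (11.1%). The number of copies of each chromosome in each library was not analysed here, and its part in these shares was not tested.

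**Figure D5:**
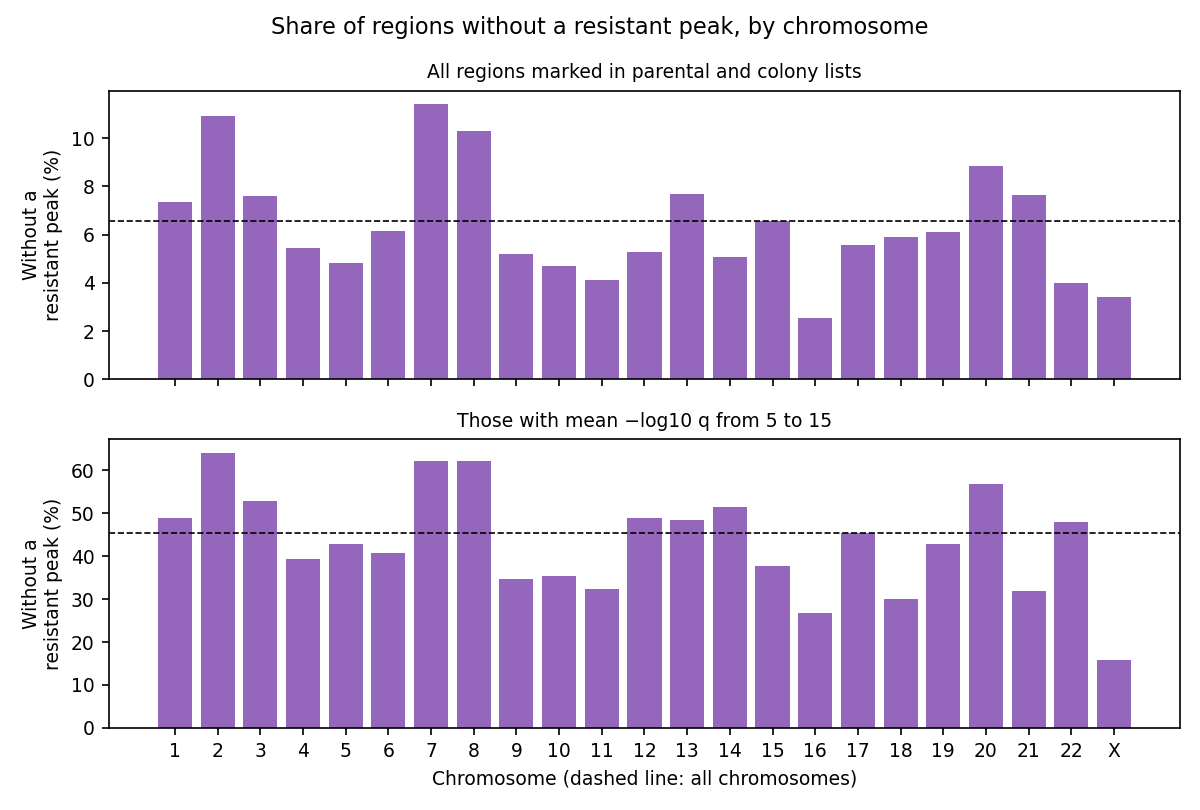
Percentage of regions marked in both parental and both colony lists that had no resistant peak, by chromosome, for all 13291 regions (top; dashed line 6.58%) and for those with a strength from 5 to 15 (bottom; dashed line 45.5%). Chromosomes 2, 7 and 8 stand highest in both panels and X lowest in the bottom one.

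Of the 874 regions, 489 (55.9%) lay in unstained bands, which are rich in genes, and 60.7% of the 13291 did, as did 52.3% of the 2178 regions absent in both drug groups and 57.2% of all regions. The bands of the 2 darkest stains held 179 (20.5%), against 13.8% of the 13291, 23.6% of the 2178 and 17.6% of all regions. Centromeric and variable bands held 24 (2.75%), against 1.19% of the 13291, 2.53% of the 2178, 4.64% of the 280 kept in 1 resistant list and 1.98% of all regions. Within 500 kb of a chromosome end lay 14 (1.6%), against 1.54% of the 13291.

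Several of the widest regions were in or next to centromeres, where repeated sequences share reads, so their positions are uncertain. At 2p11.2 (chromosome 2, 90371503 to 90394577) peaks covered 13349 and 12505 bp in parental, 6046 and 3492 bp in colony, 9420 and 10952 bp in NRAS Q61K and 11855 and 15075 bp in GFP libraries. The regions at 2p11.1 (chromosome 2, 91595109 to 91616085) and 4p11 (chromosome 4, 49638952 to 49659920) were alike in being narrower in both colony libraries, with 6043 and 4011 bp against 13025 and 10730 bp in parental libraries at 2p11.1. At 4p11 the values were 2756 and 1401 bp in colony and 9463 and 8065 bp in parental libraries. At 16p11.1 (chromosome 16, 34709099 to 34715433) the colony libraries had 6058 and 5895 bp, against 5303 and 5602 bp, so this one was not narrower.

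Ordered along the chromosomes among the 13291 regions marked in both parental and both colony lists, 695 of the 874 had no member next to them. The others formed 75 runs of 2, 7 runs of 3 and 2 runs of 4. Members made up 6.58% of the 13291, so most would lack a neighbouring member in a random order too. Their spacing was not tested. The tighter run of 4 spanned 62.3 kb at 11q14.1 (chromosome 11, 78023463 to 78085726). Its first and widest region had 3927 and 4398 bp in colony libraries, against 2331 and 2632 bp in parental libraries, while the third had 437 and 336 bp, against 1540 and 1308 bp. Neighbours in 1 run therefore differed in the direction they took in colonies. The other run of 4 stretched over 1100 kb of 19p12 (chromosome 19, 20010962 to 21107483), a variable band. Its strongest region (20958798 to 20960706) had 1436 and 1559 bp in colony libraries, against 1522 and 1181 bp in parental libraries, and all 4 regions were marked in every transgene library.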

How the data were processed

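H3K4me3 was profiled by chromatin immunoprecipitation and sequencing in 10 WM164 libraries, grouped by sample title; the inputs were not analysed here. The authors deposited 1 narrowPeak list per library. Tools listed in the submitters' processing notes are MACS2 2.1.2, BWA, deepTools 2.5.4 and SAMtools, with the builds GRCh37 and hg19 and no role or order; how inputs entered peak calling is not stated there. Each deposited peak has positions in bases, a score (10 times the −log10 q-value, as a whole number), a fold over local background, and −log10 p and q-values, all the authors' own. No read counts are given; implied background was solved from fold and p under a Poisson model.

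Peaks outside the 22 autosomes and X (589) were left out. Regions were merged at 1000 bp. Widths were compared by limma 3.58.1 (R 4.3.3): log2(bases + 200), each library centred on regions covered in all 10, 5 group means, eBayes with trend, Benjamini-Hochberg adjustment. The code was tested on simulated data. Bands came from the hg19 table of circlize 0.4.16. Named regions were the 10 strongest and 10 widest, the 5 largest rises and falls past the threshold, the 5 strongest without a transgene peak, the runs of 4, and those at the edge of the rule; the regions with the largest colony changes and the pair at 7q22.2 were picked after their values were seen. The members, lists and rules were chosen with earlier results of these data known. Gene lists and sequences were not used, since no annotation or genome of GRCh37 was at hand and coordinates were not converted between builds.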

Additional observations from a re-analysis of the deposited data

How the results depend on the processing

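The number of regions stayed within 1.5 times of 874 with another merging distance (1070 for overlapping peaks only, 813 at 3000 bp), a minimum of 200 bp under peaks (847) and each library left out (874 to 1281). It was 410 with peaks below a −log10 q of 10 removed, 473 with lists of equal length and 142 with that threshold in the parental and colony lists alone and no resistant peak of any strength. Under those 3 settings both GFP libraries marked 380, 348 and 141 regions (800 in the report's setting; 800 to 1137 with a library left out), both NRAS Q61K libraries 387, 377 and 141 (828; 828 to 1175), and no transgene library marked 2, 18 and 0 (8; 8 to 16).

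For NRAS Q61K against GFP, limma called 6 members wider and 2 narrower among regions in all 4 transgene libraries (150 and 22 of all regions), 11 and 6 with the stricter peak threshold (547 and 113), and 0 and 0 with only the 4 transgene libraries (0 and 0), where 140 members (16%) and 18.4% of all regions had an unadjusted p below 0.05. Without the resistant pair in the fit, a setting chosen after seeing the data, it called 23 and 6 (993 and 404). Over all regions 197 were narrower with a pseudocount of 1000 bp and 300 without a filter. Leaving out a library gave 11 to 34 members wider and 4 to 9 narrower, and 788 to 1123 and 366 to 487 of all regions. With the replicate number as a block, 30 members were wider and 6 narrower (1089 and 456 of all regions). Same-numbered libraries did not deviate together in covered length (correlations of −0.07 to 0.08). This measure gave no sign of pairing by number, but it cannot exclude that same-numbered libraries were handled together. The cause of the differences between settings was not tested. Lists without read counts limit depth to what peak statistics imply.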
